A study of Xenopus laevis with 35 samples.

Results

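Brains of Xenopus laevis tadpoles exposed to MMI for 24 h were compared with brains of control tadpoles of the same time. The comparison took the 3 arrays whose titles name brain, 24 h and MMI and the 3 whose titles name brain, 24 h and control, which are 6 of the 35 arrays of the series. The MMI group had been kept continuously in 100 mg/L MMI from NF stage 54, at the onset of prometamorphosis, and the control group was staged and sampled alongside it. The labels give no agent for the control group, and no genotype, strain, sex or age beyond the stage for either group. Per the labels, 10 tadpoles were taken per treatment and time, 5 from each of 2 tanks, and their brain RNA was combined into 3 pools, so each array stands for a pool of animals. A treatment had tanks of its own, so tank and treatment cannot be told apart. The rest of the series covers the same groups at 48 and 96 h and the inhibitors PTU and PER, and the question addressed here is which brain transcripts differ after the first day of MMI.

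MMI is methimazole, a drug that blocks thyroid peroxidase, the enzyme that couples iodine to thyroglobulin to make thyroid hormone. In a tadpole, rising thyroid hormone drives metamorphosis, and in the brain it acts through nuclear receptors that sit on target genes as heterodimers with retinoid X receptors. Well known direct targets are klf9 and thibz, and the brain also feeds back on the gland through the pituitary. X. laevis is an allotetraploid frog, and the suffixes .L and .S of its gene symbols mark the long and the short chromosome copy of a gene. A probe for one copy may also bind transcripts of the other.

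Each array carried 449 probes, each printed as 2 neighbouring spots, and 444 of the probes could be tested. Intensity is the radioactive signal of a probe after the submitters' background subtraction, so it can be below 0, and scaled intensity is that signal after each array was brought to a common median over 18 probes. A probe was counted as above background on an array where it exceeded 2 background SDs, the background SD being the root mean square of the negative probe values of that array. Background SDs ran from 420 to 905 units on MMI arrays and from 1214 to 1627 units on control arrays, and the part this played in the results was not tested. Between 96 and 137 tested probes were above background on an MMI array, against 103 to 117 on a control array. A probe above background on all 3 arrays of at least 1 group is called brighter here, and 68 probes were, 40 of them with a gene name. Over these probes the mean correlation of an array with the other arrays of its group was 0.839 to 0.854 for MMI and 0.597 to 0.759 for control. The 4 neural marker probes summed to between 19142 and 30760 units on MMI arrays and between 20486 and 29072 units on control arrays. Among them gap43.S, the growth cone protein of extending axons, stood at 22600.4, 13062 and 17576 units with MMI and at 18823, 15527 and 20674 units in controls. It made up most of the sum on each array, so the sums say little about the other neural markers. Of the 4 neural probes, 1 was among the brighter ones, and 2 had a positive and 2 a negative log2 change. Markers of red blood cells, muscle, immune cells, pituitary, gut and cartilage had 1 or 2 probes each and those of epidermis and retina had 0. In pooled whole brains, fewer cells of a type and less RNA per cell cannot be told apart.

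After 24 h of MMI, 3 probes were lower than in controls and 0 were higher at an adjusted p under 0.05, where p-values came from limma and were adjusted by the Benjamini-Hochberg method over the 444 probes. The lower probes were id2.L, rpl35a.S and pparg.L, and they make up 0.676% of the probes tested. Leaving out 1 array gave 0 to 5 lower calls, with 0 without MMI replicate 3, 0 without control replicate 3, 1 without MMI replicate 2 and 5 without control replicate 1. At an unadjusted p under 0.05 there were 45 lower probes (10.1%) and 7 higher ones (1.58%), for a total of 52. That split depended on scaling, with 7 lower and 39 higher after scaling by the median of all probes, and 11 lower and 23 higher after quantile normalization. The 3 MMI arrays lay below the 3 control arrays without overlap for 48 of the 425 probes with a value on each array (11.3%). They lay above the control arrays without overlap for 17 probes (4%). An exact permutation test of 3 arrays against 3 can give no p below 0.1, so single probes were judged by the fit over all 35 arrays, which pools the spread of 12 groups. Among these, replicate 1 of PER at 24 h and replicate 3 of PER at 48 h held nearly the same values (rank correlation 0.9996), and without both the same 3 genes were called.

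The first of the lower genes was id2.L (probe 99). Id2 is a helix-loop-helix protein with no DNA-binding region that ties up neurogenic transcription factors and keeps progenitors from differentiating. Its scaled intensity was 1586, 477 and 1178 units on the MMI arrays, against 4480.2, 9172 and 4779 units on the control arrays. Each MMI array was thus below each control array, and the control array of replicate 2 stood well above the other two. The means were 1081 ± 561 units with MMI and 6144 ± 2627 units in controls (SD, n = 3 each). On the log2 scale the change was -2.50 with an SE of 0.54 (limma, adjusted p = 0.0137). The signal was above background on 1 of the 3 MMI arrays and on 3 of the 3 control arrays.

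Both spots of id2.L went the same way. The first spot read 1865, 834 and 1157 units with MMI and 4954, 6975 and 3531 units in controls. The second spot read 1307, 120 and 1199.9 units with MMI and 4007, 11369 and 6026 units in controls. On neither spot did the groups overlap. Because the brighter probes as a group leaned lower with MMI, the change of id2.L was also taken relative to their median, which gave -2.07. The same relative change was -2.06 with the values as deposited, -2.10 after scaling by the median of all probes and -1.60 after quantile normalization. A single factor per array moves a probe and that median nearly alike, so only quantile normalization could change this value much. The change itself was negative under each scaling, but its adjusted p was above 0.05 after scaling by the all-probe median and after quantile normalization. Without control replicate 2, MMI replicate 2, MMI replicate 3 or control replicate 3 the adjusted p of id2.L was also above 0.05. It was likewise 0.280 with the first spot alone, 0.438 with only the 6 arrays compared, 0.360 with only the arrays of 24 h, 0.0754 with an offset of 1 and 0.0673 with a trended robust prior.

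The other called gene with signal above background was rpl35a.S (probe 295), which encodes a protein of the large ribosomal subunit. Scaled intensities were -37.5, 1853 and -757 units on the MMI arrays and 5204, 3006 and 5219 units on the control arrays. The MMI arrays scattered from below 0 to a level above background on 1 array, and each lay below each control array. That held for the average of the spots and for the first spot. On the second spot the groups overlapped, with 2556 units on MMI replicate 2 and 1812 units on control replicate 2. Means were 353 ± 1348 units with MMI and 4476 ± 1273 units in controls (SD, n = 3 each). The fitted change was -4.42 on the log2 scale with an SE of 0.96 (limma, adjusted p = 0.0137), a size that depends on the offset because 2 of the MMI values were floored at 0. Its size relative to the brighter probes was -3.99, and between -4.32 and -3.56 under the other scalings. A factor per array moves this probe and the brighter probes largely alike, so that range says little about such scaling. The call was lost without MMI replicate 1, MMI replicate 3 or control replicate 3. It was also lost after scaling by the median of all probes (limma, adjusted p = 0.345) and after quantile normalization (adjusted p = 0.2935). The same held with the first spot alone (0.144), the second spot alone (0.0701) and a generalised log2 with no floor. With only the 6 arrays compared the adjusted p was 0.521, and with only the arrays of 24 h it was 0.411.

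The third called gene, pparg.L (probe 213), encodes the fatty-acid-sensing nuclear receptor that drives fat cell formation. Its scaled intensities were -57.6, -9.2 and -388.9 units with MMI and 1478, 2196 and 1605 units in controls. None of the 6 values was above background, so no fold is given. The paired spots disagreed, since the first read 1088, 4742 and -537 units and the second 1869, -349 and 3748 units on the control arrays. With the MMI values all floored at 0, that group added no spread to the fit, and the p-value of this probe (limma, adjusted p = 0.0137) can be too small. Of the 6 fits that leave out an array, only the one without control replicate 1 kept the call.

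**Figure D1:**
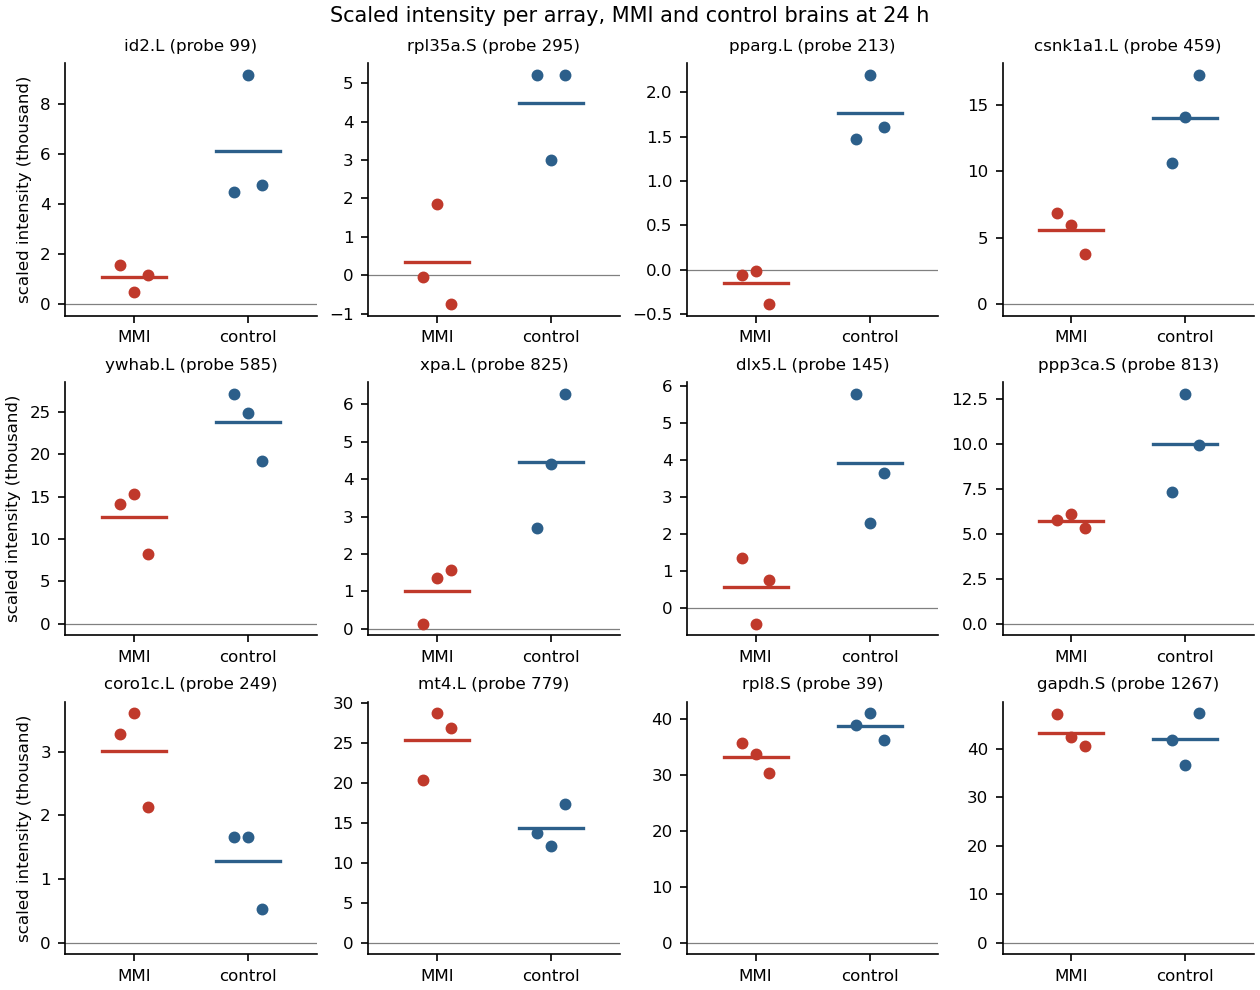
Scaled intensity, in units of 1000, for 12 probes on the 3 MMI arrays (left, red) and the 3 control arrays (right, blue) at 24 h. Points are arrays and bars are means. The MMI points of id2.L, rpl35a.S, pparg.L, csnk1a1.L, ywhab.L, xpa.L, dlx5.L, ppp3ca.S and rpl8.S (probe 39) lie below the control points, those of coro1c.L and mt4.L lie above them, and those of gapdh.S overlap.

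Among the brighter probes, 44 of 68 had a negative change and 24 a positive one, with a median of -0.43 on the log2 scale against -0.46 over all 444 tested probes. In 26 of the 68 all MMI arrays lay below all control arrays, and in 3 above them, counted where every array had a value. Non-overlap with lower MMI values was thus common among the brighter probes. Since a probe could be brighter through 1 group alone, as xpa.L was, these counts are partly set by that choice and are a description only. The lean depended on scaling, as the median of the brighter probes was -0.39 with the values as deposited, 0.98 after scaling by the median of all probes and 0.11 after quantile normalization. The median over all tested probes moved with it, to -0.46, 0.37 and 0.07. Directions of single genes below that did not pass the test are therefore those of the scaling used.

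**Figure D2:**
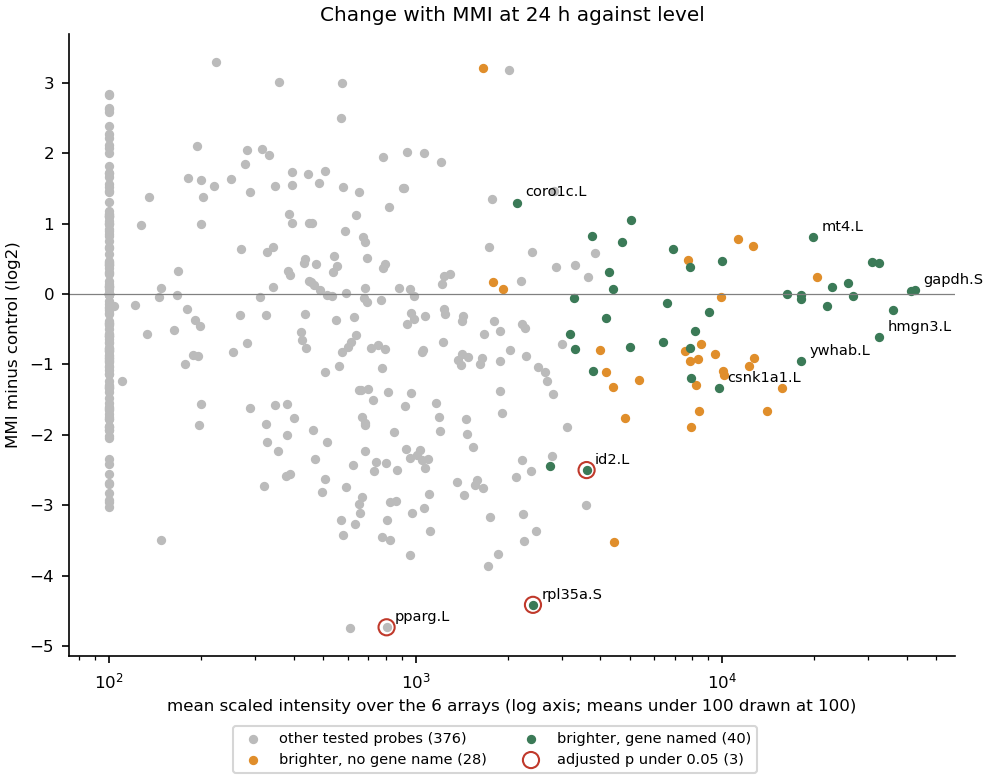
Log2 change (MMI minus control at 24 h) of the 444 tested probes against their mean scaled intensity over the 6 arrays on a log axis. Brighter probes are green where a gene is named and orange where none is, other probes are grey, and rings mark the 3 probes with an adjusted p under 0.05. At the scaling used, gapdh.S sits near 0, while most orange points lie below it.

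Next to the called genes, the smallest p-value of a brighter named gene belonged to csnk1a1.L (probe 459). Casein kinase 1 alpha phosphorylates beta-catenin and so primes it for destruction when Wnt ligands are absent. Its scaled intensity was 6888, 6004 and 3778 units with MMI, against 10643, 14064 and 17273 units in controls. The groups did not overlap and all 6 values were above background. The change was -1.34 on the log2 scale with an SE of 0.53, and it did not pass the adjustment (limma, unadjusted p = 0.0171, adjusted p = 0.361). When only probes above background on at least 3 of the 6 arrays were tested, csnk1a1.L was called, and after scaling by the median of all probes its change was 0.09.

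Other brighter genes also had non-overlapping groups with lower MMI values, as 26 of the 68 brighter probes did, but adjusted p-values above 0.05. One was ywhab.L (probe 585), a 14-3-3 adaptor that binds phosphorylated proteins, with 14101, 15331 and 8193 units with MMI against 27119, 24886 and 19225 units in controls (log2 change -0.95, unadjusted p = 0.0577). Another was ppp3ca.S (probe 813), the catalytic subunit of the calcium-dependent phosphatase calcineurin, with 5776, 6081 and 5304 units with MMI against 7336, 12784 and 9938 units in controls (log2 change -0.77). The MMI values of ppp3ca.S spanned a narrower range than the control values. The nucleosome-binding protein gene hmgn3.L (probe 189) stood at 22744, 22398 and 32119 units with MMI against 34031, 37528 and 46106 units in controls (log2 change -0.61). For npr3.L (probe 695), the clearance receptor for natriuretic peptides, values were 2167, 3183 and 1794 units with MMI and 6443, 3363 and 5834 units in controls (log2 change -1.10). Here the highest MMI array came close to the lowest control array. That control array, replicate 2, read 473 units on the first spot and 6254 units on the second, and on the first spot the groups overlapped.

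The DNA damage recognition gene xpa.L (probe 825) was above background on 0 MMI arrays and on 3 control arrays. Its values were 139.6, 1355 and 1573 units with MMI against 2693, 4406 and 6283 units in controls. The paired spots disagreed in controls, the first at 6005, 3146 and 11512 units and the second at -620, 5665 and 1055 units. On the second spot the groups overlapped. Measured against the lowest signal above background on each MMI array, the averaged signal was at least 3.13-fold lower with MMI at the scaling used. The fit did not pass the test (limma, unadjusted p = 0.0774, adjusted p = 0.446). Its log2 change was -2.45, and -1.06 after scaling by the median of all probes. That bound is the mean of the control log2 values over the mean of, per MMI array, the higher of the probe's own signal and the lowest signal above background.

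Higher values were fewer at the scaling used. After scaling by the median of all probes, 39 probes were higher and 7 lower at an unadjusted p under 0.05 (limma). The actin-binding coronin gene coro1c.L (probe 249) read 3275, 3609 and 2136 units with MMI, against 1668, 1665 and 535 units in controls. It was above background on 3 MMI arrays and on 0 control arrays, which sets it at least 1.06-fold higher with MMI (log2 change 1.30, limma, unadjusted p = 0.0398, adjusted p = 0.383). The counts of 3 and 0 rest on unlike thresholds, as background SDs were 420 to 905 units on MMI arrays and 1214 to 1627 units on control arrays. The metallothionein gene mt4.L (probe 779), which encodes a small metal-binding protein, read 20328, 28692 and 26802 units with MMI against 13706, 12105 and 17359.5 units in controls. Its groups did not overlap either, with a log2 change of 0.81 (unadjusted p = 0.198). In lmo3.S (probe 161), a LIM-only cofactor of neuronal transcription factors, the log2 change was 1.06 but the groups overlapped. The nucleoside diphosphate kinase gene nme2.L (probe 771) and the tubulin gene tubb4b.L (probe 267) had log2 changes of 0.46 and 0.48 with overlapping groups.

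The thyroid hormone list held 7 tested probes, and none of them was bright enough to be above background on all arrays of a group. All 7 fitted changes were negative at the scaling used, against 6 with the values as deposited, 6 after quantile normalization and 5 after scaling by the median of all probes. Their median was -1.83 against -0.46 over all tested probes, and 3 had an unadjusted p under 0.05, all lower. Over all 444 probes 274 changes were negative and 10.1% were lower at an unadjusted p under 0.05. None of the 7 was called. The immediate hormone-response gene klf9.L (probe 163) read -417.4, -1095 and -1887 units with MMI and 3457, 1790.2 and -964 units in controls. It was above background on no MMI array and on 1 control array. That array, replicate 1, read -148.5 units on the first spot and 7062 units on the second. The fitted change of klf9.L was -3.49 (limma, unadjusted p = 0.0143, adjusted p = 0.357). The hormone-induced protease gene fap.L (probe 729) read 2625, -316 and 118 units with MMI and 904, 2506 and 4086 units in controls (log2 change -2.75). It was above background on 1 array of each group. The retinoid X receptor gene rxrb.L (probe 203) was above background on none of the 6 arrays (log2 change -2.21).

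The remaining thyroid list members had no unadjusted p under 0.05. The hormone-induced leucine-zipper gene thibz.L (probe 177) read 222.5, 865 and -509 units with MMI and -835, -690.4 and 4146 units in controls. Its log2 change of -0.03 changed sign under several settings. The corepressor gene ctbp2l.S, the gelatinase gene mmp2.S and the corticotropin-releasing hormone binding protein gene crhbp.S had log2 changes of -1.83, -0.77 and -0.90. For mmp2.S the MMI mean was above the control mean, at 329 ± 1548 units with MMI and -616 ± 2431 units in controls, opposite in sign to its fitted log2 change. At these intensities the arrays could not show whether thyroid hormone target transcripts differed.

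The neuroendocrine list had 8 tested probes with a median of -0.17, 4 positive and 4 negative, and 0 with an unadjusted p under 0.05. The neuropeptide Y gene npy.S (probe 385), which encodes an appetite and stress peptide of the hypothalamus, read 3052, 2143 and 2101 units with MMI against 4279, 4947 and 3365 units in controls. All 6 values were above background and the groups did not overlap, and the change was -0.77 with an SE of 0.90 in the fit that pools the spread of all groups. The spots of npy.S disagreed, since the first read 2843, 1522 and 2047 units with MMI and 2048, 2935 and -111 units in controls, with overlap, and gave a log2 change of 1.44 when used alone. The growth hormone gene gh1.S (probe 421), a pituitary product, read 3211, 4619.5 and 2819 units with MMI and 5064, 2476 and 6794 units in controls, with overlapping groups (log2 change -0.34). Over all 444 probes, 10.1% were lower and 1.58% higher at an unadjusted p under 0.05. The nuclear receptor list had 10 probes with a median of -0.47, 2 lower and 1 higher at that threshold, and pparg.L as its called member. In it nr2f1.L (probe 219), an orphan receptor of forebrain patterning, read 1088, 2771 and -595 units with MMI and 3978, 2219.8 and 12147 units in controls (log2 change -3.00, unadjusted p = 0.0525). Without MMI replicate 3 the log2 change was -1.42, and without control replicate 3 it was -2.33.

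The neural transcription list had 14 probes with a median of -0.54, 8 negative and 6 positive, and id2.L was its called member. Of all 444 probes, 274 had a negative change, 10.1% were lower at an unadjusted p under 0.05 and 0.676% were called. Beside id2.L, 2 Distal-less homeobox genes of forebrain interneurons had an unadjusted p under 0.05. The probe of dlx5.L (145) read 1348, -414 and 752 units with MMI against 5786, 2297 and 3648 units in controls, with no overlap (log2 change -3.12, unadjusted p = 0.0256). The probe of dlx2.L (143) was above background on 0 MMI arrays and on 1 control array (log2 change -2.29, unadjusted p = 0.00581). Neither passed the adjustment (limma, adjusted p = 0.378 for dlx5.L). The list of neuron, glia and axon genes had 12 probes with a median of 0.00, 6 on each side of 0, with 2 lower at an unadjusted p under 0.05.

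The lists that follow are set against all 444 probes, of which 274 had a negative change. At an unadjusted p under 0.05, 10.1% of these were lower and 1.58% higher. The Wnt list had 6 probes with a median of -1.06 and pointed both ways, with 2 lower and 2 higher at that threshold. The lower ones were csnk1a1.L and frat1.S, and a joint effect on the pathway was not tested. The Frat proteins bind glycogen synthase kinase. The probe of frat1.S (805) read 223, 787 and -914 units with MMI and 6269, 2959.9 and 1829.9 units in controls. At the scaling used its bound was 2.43-fold lower with MMI. That bound counts control replicate 3, where frat1.S was under the lowest signal above background on that array, 3288 units. The change of frat1.S did not pass the adjustment (limma, unadjusted p = 0.014). The higher ones, wnt2b.L and fzd2.S, were above background on 1 of 12 readings between them. The list of TGF-beta, BMP and FGF genes had 10 probes with a median of -0.68, and 0 had an unadjusted p under 0.05. In it fgf20.L (probe 407), a secreted growth factor, read 1694, 1194 and 5734 units with MMI and -143, -48 and 3628 units in controls (log2 change 3.19, unadjusted p = 0.0582). The list of signalling kinases and phosphatases had 13 probes with a median of -0.77, 10 negative, 2 of them at an unadjusted p under 0.05.

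The cell cycle list had 20 probes, the most of any list, with a median of 0.28, 11 positive and 9 negative. It had 1 lower and 0 higher at an unadjusted p under 0.05, against 10.1% lower and 1.58% higher over all 444 probes. The replication clamp gene pcna.S (probe 425) read 2314, 3990.1 and 4196 units with MMI and 7987, 3957 and 159 units in controls, and its groups overlapped across their whole range. Its log2 change was 0.83 although its mean was 3500.04 units with MMI and 4034 units in controls, and the kinase gene cdk5.L (probe 533) likewise had a log2 change of 0.74 with a lower MMI mean. The antiproliferative gene btg1.S (probe 917) had a log2 change of -0.53. Among 9 DNA repair and chromatin probes the median was 0.08, and mbd3.S (probe 229), a subunit of a deacetylase complex, read 8296, 8379 and 8092 units with MMI against 4832, 3754 and 8119 units in controls. The 5 caspase probes had a median of -0.11, with casp1.L (probe 697), the inflammatory caspase, at -0.75 and overlapping groups.

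The 5 glycolysis probes were all among the brighter ones, and their median was -0.02, against 0.03 with the values as deposited, 0.25 after quantile normalization and 1.41 after scaling by the median of all probes. The glycolytic enzyme gene gapdh.S (probe 1267) read 47026, 42363 and 40480.1 units with MMI and 41713, 36653 and 47301 units in controls (log2 change 0.05). Other glycolytic genes were at -0.53 for aldoc.L, 0.08 for ldhb.S, -0.06 for ldha.L and -0.02 for pkm.S. The ribosome and translation list had 10 probes with a median of 0.01, against 1.45 after scaling by the median of all probes. Its 5 probes of rpl8.S, another protein of the large ribosomal subunit, had log2 changes of 0.45, 0.16, 0.05, -0.02 and -0.22, against -4.42 for rpl35a.S. The probe at -0.22 (39) read 35677, 33739 and 30356 units with MMI against 39044, 41096 and 36208 units in controls, which did not overlap. The 7 cytoskeletal probes had a median of 0.38. At an unadjusted p under 0.05 coro1c.L was higher and 1 other was lower, against 1.58% higher and 10.1% lower over all 444 probes. The 3 chaperone, stress and proteasome probes had a median of 0.32.

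**Figure D3:**
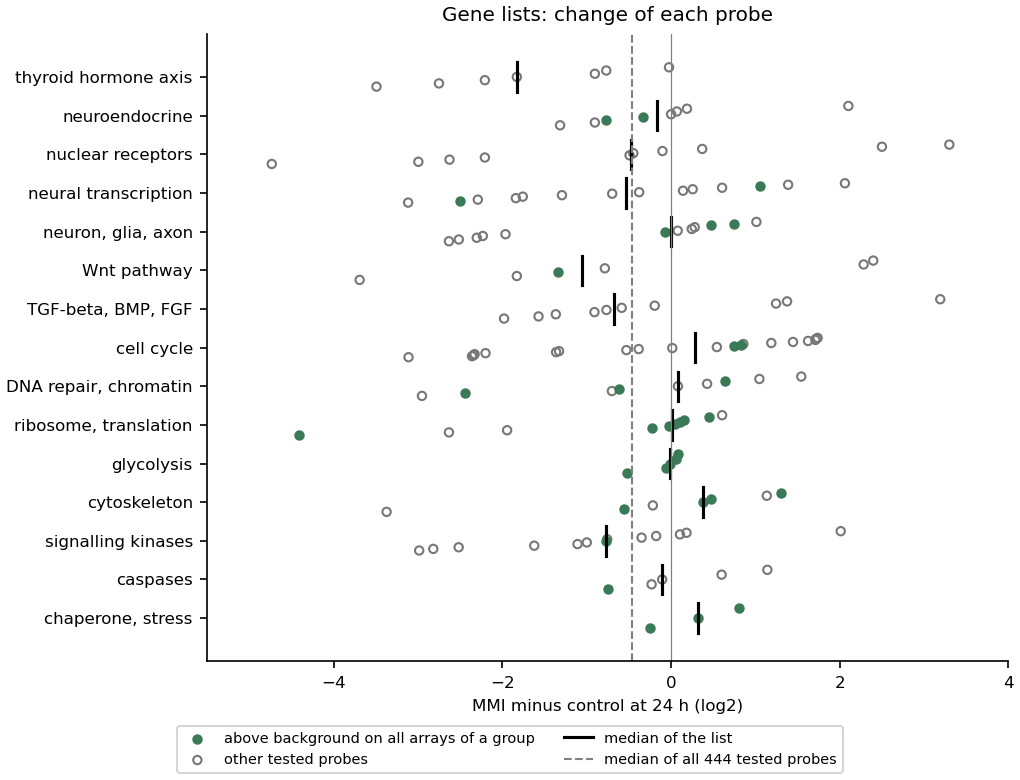
Log2 change (MMI minus control at 24 h) of each probe in 15 gene lists. Filled points are probes above background on all 3 arrays of a group, open points are others, black ticks are list medians and the dashed line is the median of all 444 tested probes, at -0.46. At the scaling used, the 7 open points of the thyroid hormone list lie below 0, and the 5 filled points of the glycolysis list cluster near 0.

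Of the 28 brighter probes with no gene name, 21 had a negative change, with a median of -0.94, against 23 of 40 and a median of -0.07 for those with a gene name. After scaling by the median of all probes these medians were 0.49 for the unnamed and 1.35 for the named probes. A factor per array moves both medians nearly alike, so their order was fixed there. After quantile normalization, which could change the gap, they were -0.27 for the unnamed and 0.25 for the named probes. Probe 1165 read 8646, 5729 and 5667 units with MMI against 25563, 21746 and 16412 units in controls (log2 change -1.66, limma, unadjusted p = 0.008, adjusted p = 0.357). Probe 1047 read 1779, 1585 and 2812 units with MMI against 12532, 4928 and 5324 units in controls (log2 change -1.76). Probe 1173 had an empty cell on MMI replicate 2 and read 9493 and 6838 units on the other MMI arrays, against 23690.4, 19357 and 18823 units in controls (log2 change -1.34, n = 2 and 3). In none of these did the groups overlap, and each was called when only probes above background on at least 3 of the 6 arrays were tested. Among the 28 brighter probes with no gene name, all MMI arrays lay below all control arrays in 14 and above them in 1, counted where every array had a value.

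The 24 h difference was next set against that of 48 and 96 h, each time with its own control arrays. Between 24 and 48 h, 0 of 444 probes differed in their MMI effect (0%) by limma at an adjusted p under 0.05, and 32 did at an unadjusted p under 0.05. Other settings gave 0 to 3. The level of id2.L was 4370 ± 1409.7 units with MMI and 5066 ± 674 units in controls at 48 h, and 2459 ± 642 units with MMI and 5577 ± 541 units in controls at 96 h (SD, n = 3 each). Its log2 change was -2.50 at 24 h, -0.26 at 48 h and -1.18 at 96 h. The difference between 24 and 48 h was -2.24 with an SE of 0.76 (limma, unadjusted p = 0.00657, adjusted p = 0.292), which did not pass the test. For rpl35a.S the log2 change was -4.42 at 24 h, -1.31 at 48 h and 0.24 at 96 h, with 2445 ± 212 units with MMI and 6205 ± 796 units in controls at 48 h. Its difference between 24 and 48 h was -3.10 (limma, adjusted p = 0.519), and between 24 and 96 h -4.65 (adjusted p = 0.0563). Neither difference of rpl35a.S passed the test.

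Between 24 and 96 h, 13 of 442 probes differed in their MMI effect (2.94%), all with the more negative change at 24 h, and 73 did at an unadjusted p under 0.05. For npy.S the 24 h effect minus the 96 h effect was -4.86 with an SE of 1.28 (limma, adjusted p = 0.031). Its MMI mean was 2432 units at 24 h and 3616 units at 96 h, while its control mean was 4197 units at 24 h and -227 units at 96 h, where it was above background on none of the 3 arrays. For probe 1165 the difference was -3.22 with an SE of 0.83 (limma, adjusted p = 0.0297). Its MMI mean was 6681, 11311 and 15832 units at 24, 48 and 96 h, and its control mean was 21240.4, 11678 and 5863 units. From 24 to 96 h the log2 change was 0.53 with MMI and -4.32 in controls for npy.S, and 1.25 with MMI and -1.97 in controls for probe 1165. For these probes the changes in controls passed the test (limma, adjusted p = 0.00424 for npy.S and 0.0421 for probe 1165) and those with MMI did not. The kinase gene map2k3 had the largest difference of the 13, with changes of the same signs as these probes. Its MMI values at 24 h were -723, -86 and -1130 units, all floored at 0. The size of this difference thus depends on the offset, and its p-values can be too small. For map2k3 the change with MMI passed the test, at 5.76 (limma, adjusted p = 0.0303). Its change in controls did not, at -2.73 (adjusted p = 0.213). Probes 465 and 579 passed in neither group. At 96 h background SDs ran from 353 to 1316 units on MMI arrays and from 1025 to 1261 units on control arrays. The part this played was not tested. The count of 13 depended on the processing and ran from 1 to 36, with 2 for the values as deposited. It was 3 without MMI replicate 3, and 4 without MMI replicate 1, control replicate 1, control replicate 2 or MMI replicate 3 of 96 h.

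**Figure D4:**
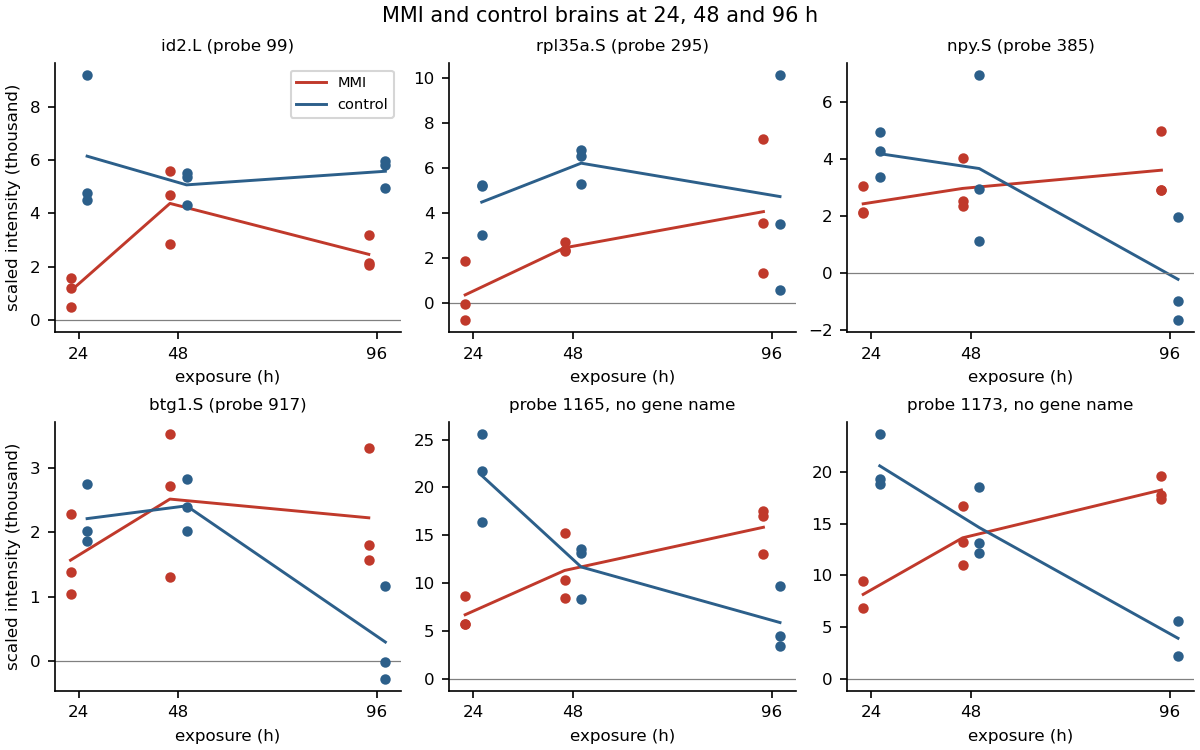
Scaled intensity, in units of 1000, against hours of exposure for 6 probes. Points are arrays and lines join group means, with MMI in red and control in blue, drawn slightly apart. The MMI points of id2.L and rpl35a.S lie below the control points at 24 h, and in probes 1165 and 1173 the MMI line climbs while the control line drops so that they cross near 48 h.

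PTU, propylthiouracil, is another thionamide that blocks thyroid peroxidase, and was given at 20 mg/L. Its arrays share the 24 h control arrays with MMI and its concentration differs, so the values are given side by side. For id2.L the means were 1081 ± 561 units with MMI, 2199 ± 1049 units with PTU and 6144 ± 2627 units in controls (SD, n = 3 each). The means of rpl35a.S were 353 ± 1348 units with MMI, 3242 ± 1023 units with PTU and 4476 ± 1273 units in controls. Means of csnk1a1.L were 5557 ± 1603 units with MMI, 3271 ± 1013 units with PTU and 13993 ± 3316 units in controls. Against control its log2 change was -1.34 with MMI (limma, adjusted p = 0.361) and -2.10 with PTU (adjusted p = 0.042). At an adjusted p under 0.05, 7 of 443 probes were lower and 0 higher with PTU, against 3 of 444 lower with MMI. Among the 7 were also xpa.L at -5.44 and pparg.L at -4.74. For xpa.L the PTU mean was -1353 ± 1295 units, and 0 of the 3 PTU arrays were above background. The size of that change thus depends on the offset, and the paired spots of xpa.L disagreed in controls. The change of pparg.L was -4.74 with MMI too, because the values of both treated groups were floored at 0. Both changes thus only set the control values against the offset. None of its MMI, PTU or control arrays at 24 h was above background. In mt4.L the means were 25274 ± 4386 units with MMI, 30158 ± 30041 units with PTU and 14390.3 ± 2693 units in controls, where the PTU arrays spread widely.

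**Figure D5:**
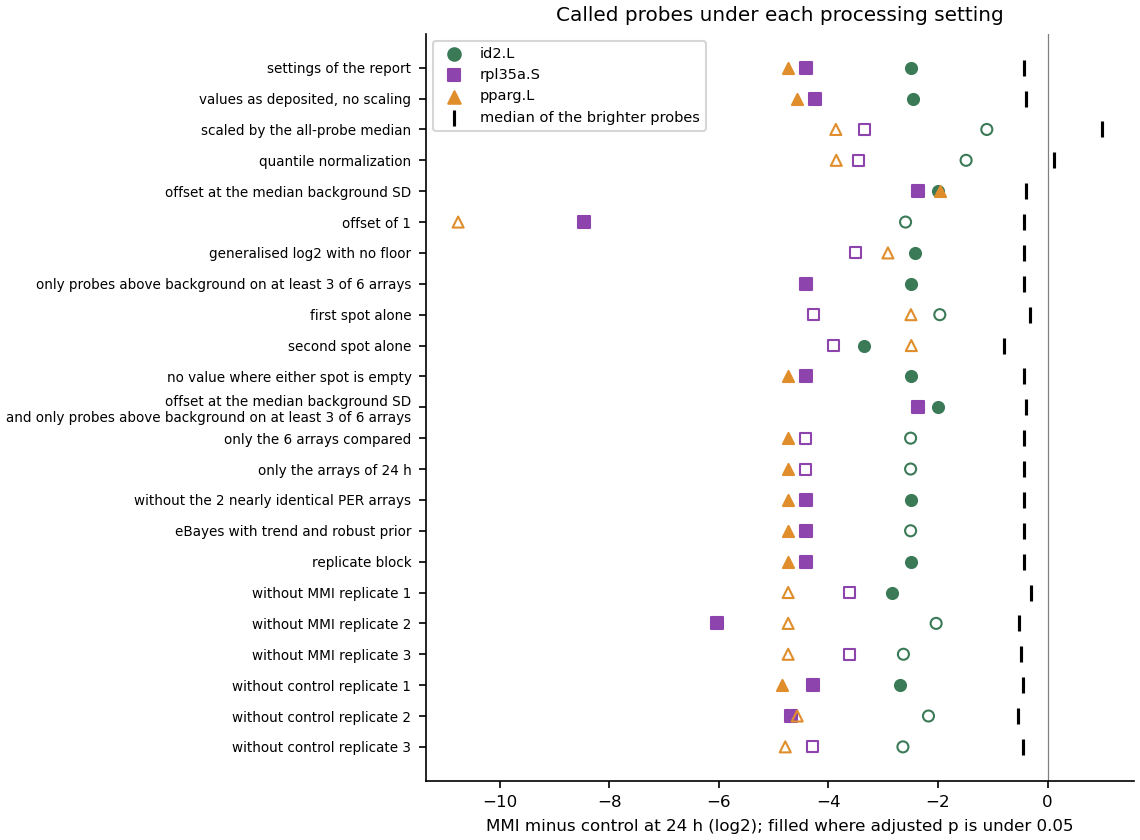
Log2 change (MMI minus control at 24 h) of id2.L, rpl35a.S and pparg.L under the settings of the report and each alternative, filled where the adjusted p was under 0.05 and open otherwise. Black ticks are the median of the brighter probes. All changes of the 3 genes are negative, and the ticks lie right of 0 after scaling by the median of all probes and after quantile normalization.

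The call of id2.L held under 11 of 22 alternatives, that of rpl35a.S under 12 of 22 and that of pparg.L under 9 of 20, and all of these changes were negative. The change of id2.L ranged from -3.36 to -1.11 and that of rpl35a.S from -8.46 to -2.37 over the alternatives.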

How the data were processed

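The authors deposited one table of intensity values, linear whole numbers with background already subtracted, for 898 spots on 35 arrays. Per the labels' protocols, amplified RNA from the pools was turned into cDNA carrying 32P and bound to 1-channel arrays. How they were scanned, how background was removed, whether they were scaled and why some cells are empty is not given in the sources used here. The paired spots of each of 449 probes were averaged, or the filled one was taken. Of the probes, 250 have a gene name in the platform annotation (243 genes, 3 under the array's own symbol) and 199 are given by ID. On 18 probes every array was above background, and arrays were scaled by their median over these (SD between arrays 0.352, log2). Values were floored at 0, 67.6 units (the 5th percentile of positive values) were added, and log2 was taken. This offset shrinks or sets the changes of dim probes.

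limma 3.58.1 (lmFit, eBayes; R 4.3.3) fitted all 12 groups together, with at least 2 values per group, and adjusted by Benjamini-Hochberg over all tested probes. The script was tested on simulated data. The members, gene lists and tests were chosen with earlier results of these data known. The named genes were the called probes, up to 10 higher and 10 lower brighter named probes by smallest p, thyroid list probes above background on an array, up to 2 probes per other list above background on 3 arrays, the 5 brightest named probes and up to 3 unnamed ones. Other genes named (dlx2.L, frat1.S, rxrb.L, crhbp.S, wnt2b.L, fzd2.S, ldha.L, pkm.S, gap43.S and 2 rpl8.S probes) were chosen after their values were seen. Precision is limited by the 3 arrays per group, and p-values rest on the spread between pools within a group, taken over all 12 groups. The pools of a group came from 10 tadpoles of 2 tanks, so p-values do not cover the spread between further tanks. Alternatives covered scaling, offset, floor, filter, spots, arrays fitted, the replicate number as a block and leaving out each array. Figures used matplotlib 3.10.9 in Python 3.11.15.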

Additional observations from a re-analysis of the deposited data

Results flagged for a closer look

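The 13 probes listed here had an MMI effect at 24 h that differed from the MMI effect at 96 h in limma's test of the difference itself, at an adjusted p under 0.05. Each value is the log2 change at 24 h minus that at 96 h, and all 13 are negative. Named genes were npy.S, the neuropeptide Y gene, at -4.86, btg1.S, an antiproliferative gene, at -4.14, map2k3, a stress-activated protein kinase kinase, at -8.50 and pparg.L at -5.41. Of these, map2k3 and pparg.L were above background on none of the 6 arrays at 24 h. Their MMI values at 24 h were all floored at 0, so the sizes of these differences depend on the offset. At 96 h too, pparg.L was above background on no MMI or control array. Probes with no gene name were 465 at -3.96, 467 at -4.14, 579 at -3.09, 581 at -5.13, 633 at -5.58, 809 at -4.53, 909 at -3.66, 1165 at -3.22 and 1173 at -3.69. The smallest adjusted p was that of probe 809 (limma, 0.000453), whose means at 24 h were close, at 1974 ± 165 units with MMI and 1889 ± 403 units in controls (SD, n = 3 each). At 96 h its means were 1668 ± 707 units with MMI and -742 ± 208 units in controls. The control values of probe 809 at 96 h were -980, -644 and -601 units, all floored at 0. That group added no spread to the fit, so the p-value of this probe can be too small. The size of its difference depends on the offset. From 24 to 96 h the log2 change with MMI was -0.30 for probe 809 and 0.48 for btg1.S, and neither passed the test. In controls it was -4.84 for probe 809 and -3.66 for btg1.S, both with an adjusted p under 0.05. For map2k3 the log2 change was 5.76 with MMI (limma, adjusted p = 0.0303) and -2.73 in controls (adjusted p = 0.213).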

How the results depend on the processing

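The 3 lower calls of MMI against control at 24 h became 0 after scaling by the median of all probes, 0 after quantile normalization and 0 with the first spot alone. There was 1 with an offset of 1, 1 with a generalised log2 and no floor, 1 with only the 6 arrays compared and 1 with only the arrays of 24 h. There were 5 with an offset at the median background SD, 7 with only probes above background on at least 3 of 6 arrays and 8 with both changes together, where fewer probes were tested. Leaving out 1 array gave 0 to 5 lower and 0 to 1 higher calls, with none lower without MMI replicate 3 or control replicate 3, 1 lower without MMI replicate 2, 5 lower without control replicate 1 and 1 higher without control replicate 2. A 2-fold rule after the labels, with its variability limit read as log2, gave 45 lower and 17 higher at a limit of 1.7, and 26 lower and 3 higher at a limit of 1.1. The effect at 24 h minus that at 48 h gave 2 calls with the filter, 2 with filter and offset, 1 with the second spot alone, 1 with a trended robust prior, and 0 to 3 without 1 array (3 without control 48 h replicate 2). The effect at 24 h minus that at 96 h gave 2 with values as deposited, 1 with the all-probe median, 3 with quantile normalization, 8 with an offset of 1, 7 with the second spot, 22 with the larger offset, 22 with the trended prior, 31 with the filter and 36 with filter and offset. Without 1 array it gave 3 to 16, with 3 without MMI replicate 3 and 4 without MMI replicate 1, control replicate 1, control replicate 2 or MMI 96 h replicate 3. The interactions were not fitted on the 6 arrays, on the 24 h arrays or with the replicate block.

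Changes turned positive with the all-probe median for rpl8.S (probe 39) at 1.21, thibz.L at 0.43, hmgn3.L at 0.82, npy.S at 0.63, gh1.S at 1.07, csnk1a1.L at 0.0888, ywhab.L at 0.48, npr3.L at 0.31, casp1.L at 0.67, aldoc.L at 0.90, atp1b3.S at 0.73, cct3.S at 1.18, ppp3ca.S at 0.66, mmp2.S at 0.0123, btg1.S at 0.85 and probe 1173 at 0.0633. With quantile normalization they turned positive for thibz.L at 0.42, npy.S at 0.23, gh1.S at 0.71, casp1.L at 0.14, aldoc.L at 0.20, atp1b3.S at 0.10, cct3.S at 0.67 and btg1.S at 0.54, and rpl8.S (probe 81) was at -8.9e-06. The change of thibz.L was 0.00779 as deposited, 1.85 with an offset of 1, 0.11 with the generalised log2 and 0.80 with the first spot, and mmp2.S was at 0.30 with the generalised log2. With the first spot npy.S was at 1.44 and xnf7.L at -0.30, and with the second spot rpl8.S (probe 81) was at -0.10, pcna.S at -0.93, ldhb.S at -0.15 and gapdh.S at -0.21. Without 1 array the changes spanned 0, from -2.44 to 0.0648 for mmp2.S, -0.0400 to 0.14 for gapdh.S, -1.02 to 1.96 for thibz.L, -0.80 to 1.83 for cdk5.L, -0.21 to 0.37 for ldhb.S and -0.72 to 1.86 for pcna.S. The cause of these shifts was not tested.

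The correlations of same-numbered deviations were -0.0013, -0.05 and 0.06. They were taken over all tested probes, many of them not above background, so they cannot show whether replicate numbers pair the arrays. With the replicate block there were 3 lower calls, and id2.L had an adjusted p of 0.04997. The added alternatives (averaging only complete spot pairs, offset with filter, and leaving out arrays of 48 and 96 h) were chosen after seeing the data. The pparg.L probe had no value under the filter. Signal over background limits the dim probes, the thyroid list among them.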

Other observations

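Of the 9 probes with no gene name whose MMI effect differed between 24 and 96 h, 8 were among the brighter probes at 24 h. Over all 35 arrays the median correlation of their scaled log2 values was 0.64 over 28 pairs, with a lowest value of 0.09, against a median of 0.04 over 780 pairs of the 40 brighter named probes. These probes were chosen after their values were seen, they share arrays and scaling, and the correlation is a description only. Probe 909 read a mean of 8815 ± 2067 units with MMI and 16538 ± 3494 units in controls at 24 h, and 18269.7 ± 4693 units with MMI and 2754 ± 1284 units in controls at 96 h (SD, n = 3 each).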
